A study of Mus musculus with 12 samples.

Results

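The Cyp2d cytochromes are a family of liver cytochrome P450 genes that lie side by side on mouse chromosome 15, and their members were taken as the rows of the count table whose symbol is Cyp2d9, Cyp2d10, Cyp2d11, Cyp2d12, Cyp2d13, Cyp2d22, Cyp2d26 or Cyp2d40. Of these 8 symbols 7 were found among 38087 genes, and all 7 passed the filter on low counts that left 14235 genes for testing. Cyp2d13, which RefSeq lists as a transcribed pseudogene, matched no row and is not analysed here. The livers came from male C57BL/6j mice aged 13 to 16 weeks, all germ-free, that is, kept free of microorganisms. In the GH group 6 mice were injected subcutaneously with growth hormone (recombinant, human) at 50 µg per mouse, and in the PBS group 6 mice were injected with phosphate-buffered saline. The labels do not say if this is the amount of 1 injection or of 1 day. Injections were given 2 times a day, at ZT 2 and ZT 14 (hours after lights on), for 5 days, and the livers were collected at ZT 2. The labels number the samples without describing the animals further, and a p-value here reflects the spread among these 12 samples.

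Cytochromes P450 are haem enzymes of the endoplasmic reticulum that insert oxygen into drugs, steroids and fatty acids, with electrons passed on by P450 reductase (Por). Humans keep a single functional gene of this family, CYP2D6, known for its many drug substrates, while the mouse carries a row of near-identical copies and pseudogenes. Cyp2d9 encodes a steroid hydroxylase that acts on testosterone and is a textbook male-biased gene of mouse liver, maintained by the pulsed GH secretion of males through the transcription factor STAT5B. Cyp2d22 is the copy most often set beside human CYP2D6. The question behind the comparison is what GH injections do to liver expression in the absence of a microbiota.

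The sequences just upstream of 5 members are printed first, because they show how alike the copies are at the base level and where copies with large and small fold changes differ. Each stretch is 110 bases of the sense strand from RefSeq on GRCm38.p6 (mm10) and ends at a CAAAGNNCA match, the kind of letters bound by the hepatocyte factor HNF4A. The capitals mark this match and, in Cyp2d9, a TTCCGG match, the kind bound by the ETS factor GABP. The positions are chr15:82452226-82452335 (plus strand) for Cyp2d9, chr15:82394079-82394188 (minus) for Cyp2d11, chr15:82407239-82407348 (minus) for Cyp2d10, chr15:82764227-82764336 (minus) for Cyp2d40 and chr15:82794295-82794404 (minus) for Cyp2d26. RefSeq entries for Cyp2d12 and Cyp2d22 were not matched.
Cyp2d9: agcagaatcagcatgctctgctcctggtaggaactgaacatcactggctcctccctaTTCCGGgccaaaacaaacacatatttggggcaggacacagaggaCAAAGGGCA
Cyp2d11: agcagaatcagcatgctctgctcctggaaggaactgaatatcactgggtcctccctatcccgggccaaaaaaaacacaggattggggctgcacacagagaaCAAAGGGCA
Cyp2d10: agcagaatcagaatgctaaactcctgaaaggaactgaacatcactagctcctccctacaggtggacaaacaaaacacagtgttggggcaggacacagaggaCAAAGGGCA
Cyp2d40: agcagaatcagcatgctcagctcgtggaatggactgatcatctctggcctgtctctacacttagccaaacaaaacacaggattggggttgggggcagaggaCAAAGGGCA
Cyp2d26: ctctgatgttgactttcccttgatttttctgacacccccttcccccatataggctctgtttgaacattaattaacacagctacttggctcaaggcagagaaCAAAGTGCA

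Over these 110 bases Cyp2d9 was 90.0% identical to Cyp2d11, 83.6% to Cyp2d10 and 76.4% to Cyp2d40, with no gap. Cyp2d26 was the outlier of the set, at 60.4% to 64.3% of the 96 to 100 bases that could be aligned. The motifs named here were searched on both strands of the 250 bases before each RefSeq start, and their matches did not overlap. All 5 windows held 1 CAAAGNNCA match, against 5.49% of 32851 mouse promoters of the same length, and all 5 held the TATA-box letters TATAAG, against 6.65%. The windows of Cyp2d9, Cyp2d11, Cyp2d10 and Cyp2d40 resemble each other, so their matches are not independent cases to set against these shares. On the sense strand TATAAG began 89 bases before the RefSeq start in Cyp2d40 and 26 to 41 bases before it in the other windows. TTCCGG was found in Cyp2d9 and in none of the other 4, against 12.0% of promoters. Neither the STAT5 letters TTCNNNGAA (7.02% of promoters) nor the HNF6 letters ATTGAT (6.72%) occurred in any of the 5 windows, which says only that these letters are not in this window.

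Cyp2d11 shared 94.7% of its coding bases with Cyp2d10, 93.3% with Cyp2d9 and 90.7% with Cyp2d12, and Cyp2d9 shared 92.5% with Cyp2d10. Cyp2d26 and Cyp2d22 stood farther off, with 82.4% and 78.9% identity to Cyp2d9. Cyp2d40 was 85.1% identical to Cyp2d9 over the 1014 coding bases that GENCODE M21 annotates for it. Reads were 125 bases long, and of the words of that length in each gene's transcripts the share found in no other gene's transcripts was 95.6% for Cyp2d9, 92.8% for Cyp2d10, 92.8% for Cyp2d11 and 98.9% for Cyp2d12. It was 100% for Cyp2d22, Cyp2d26 and Cyp2d40. Words of 50 bases were less distinctive, with 62.8% unique in Cyp2d11, 64.2% in Cyp2d10 and 78.2% in Cyp2d9. The sources used here do not say how reads with several matches were treated, so counts of Cyp2d9, Cyp2d10, Cyp2d11 and Cyp2d12 are uncertain to that extent.

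The libraries held 19523104 to 23278931 counts each, and no label names a batch. Of the 14235 genes tested with edgeR 682 changed at an adjusted p under 0.05, 323 higher and 359 lower in GH (211 and 658 with scaling by library totals alone, which moved the median log2 fold change of all genes by -0.06). Hepatocyte markers dominated every library, with 0 of 7 past the test and summed levels of 90376 to 107770 CPM in PBS and 72119 to 96031 CPM in GH. Among markers of kidney and intestine, which also express Cyp2d genes, Kap had no count and Slc34a1 and Umod had mean levels of at most 0.0313 CPM. Vil1 had mean levels of 0.266 CPM in PBS and 0.274 in GH, and Lgals4 3.29 and 3.48. Fabp2 was clearly present, with 46.2 CPM in PBS and 51.0 in GH. Fabp2 and Lgals4 were tested and did not pass. None of the 6 Kupffer, 6 sinusoidal endothelial and 5 cholangiocyte markers passed, and 1 of 6 stellate cell markers fell, Dcn, by 0.38 on the log2 scale. The part of these marker levels in the results was not tested. GH replicate 6 stood apart for Cyp2d9 and Cyp2d40, with values inside the PBS range, and whether its labelling or dosing had a part in this was not tested. In whole liver more cells of a type and more RNA per cell cannot be told apart.

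Of the 7 members 3 rose in GH, Cyp2d40, Cyp2d11 and Cyp2d22, 0 fell and 4 did not pass. Of all genes tested 2.27% were called higher in GH, 2.52% lower and 4.79% in either direction. The median log2 fold change of the 7 members was 0.76, with all 7 estimates above 0, beside 0.00 for all genes tested. The response was uneven: Cyp2d12, Cyp2d40 and Cyp2d11 had estimates near a doubling, Cyp2d9 a fold of 1.69, Cyp2d22 one of 1.33, and Cyp2d26 and Cyp2d10 folds of 1.13 and 1.08. In 4 members, Cyp2d9, Cyp2d11, Cyp2d22 and Cyp2d40, 5 of the 6 GH libraries lay above every PBS library. The share of all genes tested with this arrangement was not computed, so this count has no background to be judged against. The groups overlapped in all 7 members, while they were apart in 3.18% of all genes tested. The count was fragile: in 8 of the 12 fits that each omitted 1 library Cyp2d22 was the single member called. With GH replicate 6 and PBS replicate 5 left out, a choice made after seeing the data, 4 of the 7 members were called, Cyp2d9 being added (7.18% of all genes tested were called in that fit).

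**Figure D1:**
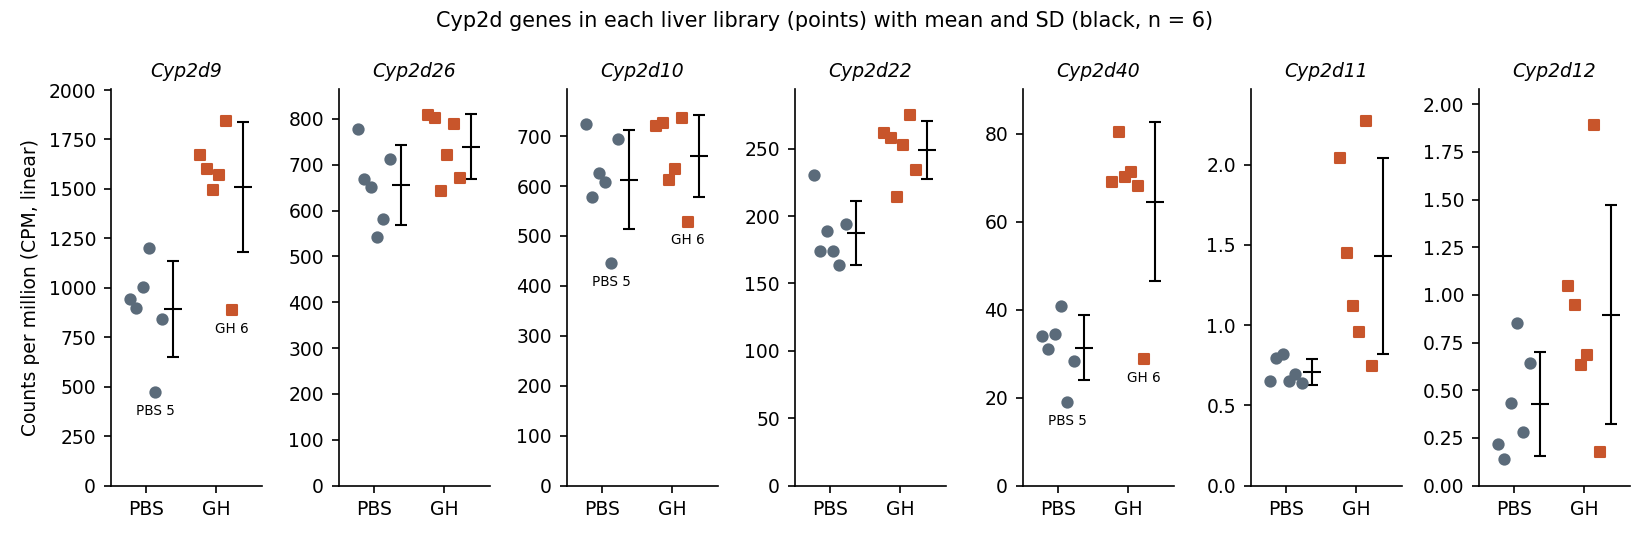
CPM (counts per 1000000 after TMM scaling, linear axis from 0) of the 7 Cyp2d genes in each library, PBS as grey circles and GH as orange squares, with the group mean and SD in black (n = 6). GH replicate 6 sits at 888 CPM for Cyp2d9 and 28.7 CPM for Cyp2d40, among the PBS libraries, while the other 5 GH libraries lie above all PBS libraries.

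Compared as CPM (counts per 1000000 after scaling of the libraries) per kilobase of exon, 3 genes were expressed at nearly the same high level in the PBS livers. Cyp2d10 had 372 ± 59.7 CPM per kb, Cyp2d26 had 366 ± 48.2 and Cyp2d9 had 336 ± 90.8 (SD, n = 6), values whose spreads cover each other. Cyp2d22 followed at 48.0 ± 6.08 CPM per kb and Cyp2d40 at 17.4 ± 4.07, each clear of its neighbours in this order. Cyp2d11 (0.446 ± 0.0504 CPM per kb) and Cyp2d12 (0.110 ± 0.0706) were close to silent. In GH Cyp2d9 stood at 568 ± 123 CPM per kb, Cyp2d26 at 413 ± 39.7 and Cyp2d10 at 400 ± 49.9, so that the mean of Cyp2d9 was below those of Cyp2d10 and Cyp2d26 in PBS and above them in GH. The SD range of Cyp2d9 in GH still overlapped those of Cyp2d26 and Cyp2d10. The exonic length of Cyp2d9, 2.658 kb in GENCODE M21, includes upstream exons, and the order turns on it: at a length below 2.4 kb Cyp2d9 would be the highest in PBS as well.

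Cyp2d9 (chromosome 15, 82433437 to 82456845, plus strand) was the most abundant member by CPM. Its level ran from 471 CPM in PBS replicate 5 to 1202 in PBS replicate 4, with a median of 922, and in GH from 888 in replicate 6 to 1841 in replicate 5, with a median of 1585. The other 5 GH libraries began at 1494 CPM, above every PBS value, whereas GH replicate 6 fell next to the PBS median. The log2 fold change was 0.76 ± 0.21 (SE, n = 6) and missed the threshold in edgeR (adjusted p = 0.0617). The call turned on method and on single libraries. It passed in DESeq2 (adjusted p = 0.00326, with 4 members called beside 7.21% of genes), without GH replicate 6 (log2 fold change 0.87, adjusted p = 0.0142), without PBS replicate 5 (0.62, adjusted p = 0.0360) and without PBS replicate 4 (0.86, adjusted p = 0.0449). Without both GH replicate 6 and PBS replicate 5 the adjusted p was 0.000184.

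Cyp2d40 (82759833 to 82764183, minus strand) showed the same arrangement of libraries at a lower level. Its PBS values lay between 19.0 CPM (replicate 5) and 40.9 (replicate 4), with a median of 32.6, and its GH values between 28.7 (replicate 6) and 80.3 (replicate 2), with a median of 69.5. The other 5 GH libraries ran from 68.1 CPM upwards and GH replicate 6 sat inside the PBS range. Cyp2d40 rose by 1.04 ± 0.24 log2 units (SE; edgeR adjusted p = 0.0305), and without GH replicate 6 by 1.20 (adjusted p = 0.000414). Of 12 fits that each omitted 1 library the call held in 3, those without GH replicate 6, PBS replicate 4 or PBS replicate 5, and was lost in the other 9 (highest adjusted p 0.0684).

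Cyp2d22 (82370527 to 82380260, minus strand) gave the most stable call, with a small change. It had 164 to 231 CPM in PBS, with a median of 181, and 214 to 275 CPM in GH, with a median of 255. Only PBS replicate 1, at 231 CPM, reached into the GH values, and GH replicate 6, at 234, lay above every PBS library here. Cyp2d22 rose by 0.41 ± 0.09 log2 units (SE; adjusted p = 0.0124). It passed in each of the 12 fits that omitted 1 library (adjusted p 0.00285 to 0.0343). Cyp2d22 was thus the single member analysed in which GH replicate 6 fell outside the PBS range.

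Cyp2d26 (82790101 to 82794294, minus strand) and Cyp2d10 (82402846 to 82407195, minus strand) were abundant and had the smallest fold changes of the 7. Cyp2d26 had 541 to 779 CPM in PBS (median 660) and 644 to 808 CPM in GH (median 755), with a log2 fold change of 0.17 ± 0.09 (adjusted p = 0.339). Cyp2d10 had 445 to 724 CPM in PBS (median 617) and 529 to 736 CPM in GH (median 677), with a log2 fold change of 0.11 ± 0.11 (SE, n = 6; adjusted p = 0.668). Their groups overlapped over most of their range. Neither passed under any alternative or with any library left out, where Cyp2d26 ran from 0.12 to 0.23 and Cyp2d10 from 0.03 to 0.16 on the log2 scale.

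Cyp2d11 (82389154 to 82394022, minus strand) and Cyp2d12 (82555072 to 82560403, plus strand) rested on few reads. Cyp2d11 had 13 to 17 counts per PBS library and 17 to 48 per GH library, or 0.641 to 0.821 CPM (median 0.675) against 0.747 to 2.27 CPM (median 1.28). Cyp2d11 rose by 1.0 ± 0.27 log2 units (SE; adjusted p = 0.0445), a call that held in 2 of the 12 fits, those without GH replicate 4 or GH replicate 6 (highest adjusted p 0.110). Its counts amounted to 0.0542% to 0.148% of those of Cyp2d9 in PBS and to 0.0611% to 0.123% in GH. Relative to Cyp2d10 they were 0.0897% to 0.156% in PBS (median 0.119%) and 0.141% to 0.309% in GH (median 0.191%). Words of 125 bases shared with Cyp2d10 made up 7.23% of its transcripts, and the part of reads from these relatives in its count was not tested. Cyp2d12 had 3 to 17 counts in PBS and 4 to 40 in GH, with 0.141 to 0.853 CPM (median 0.357) against 0.176 to 1.89 CPM (median 0.816). Its log2 fold change of 1.06 ± 0.48 did not pass (adjusted p = 0.245), and the groups overlapped widely.

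The table holds 3 further rows of the family that are not among the 8 symbols. The row Gm5062, which carries the Ensembl identifier of the pseudogene Cyp2d41-ps (82777931 to 82782110, minus strand), had the largest fold change of the 9 rows tested. It had 5 to 20 counts per PBS library and 15 to 67 per GH library, or 0.232 to 0.866 CPM (median 0.672) against 0.659 to 3.41 CPM (median 2.63). Gm5062 rose by 2.01 ± 0.35 log2 units (SE; adjusted p = 0.00415). It passed in each of the 12 fits. No 125-base word of Gm5062 was found in another gene. Of its 50-base words 81.3% were unique and 10.2% were shared with Cyp2d40. Its count was 1.22% to 2.56% of that of Cyp2d40 in PBS and 2.29% to 4.94% in GH, and the part of reads from Cyp2d40 in it was not tested. The pseudogene Cyp2d37-ps rose by 0.51 ± 0.13, from 22.1 ± 3.42 to 31.6 ± 5.80 CPM (SD, n = 6; adjusted p = 0.0331), and kept its call in 4 of the 12 fits. Cyp2d34 had 0 to 10 counts per library and was not tested.

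**Figure D2:**
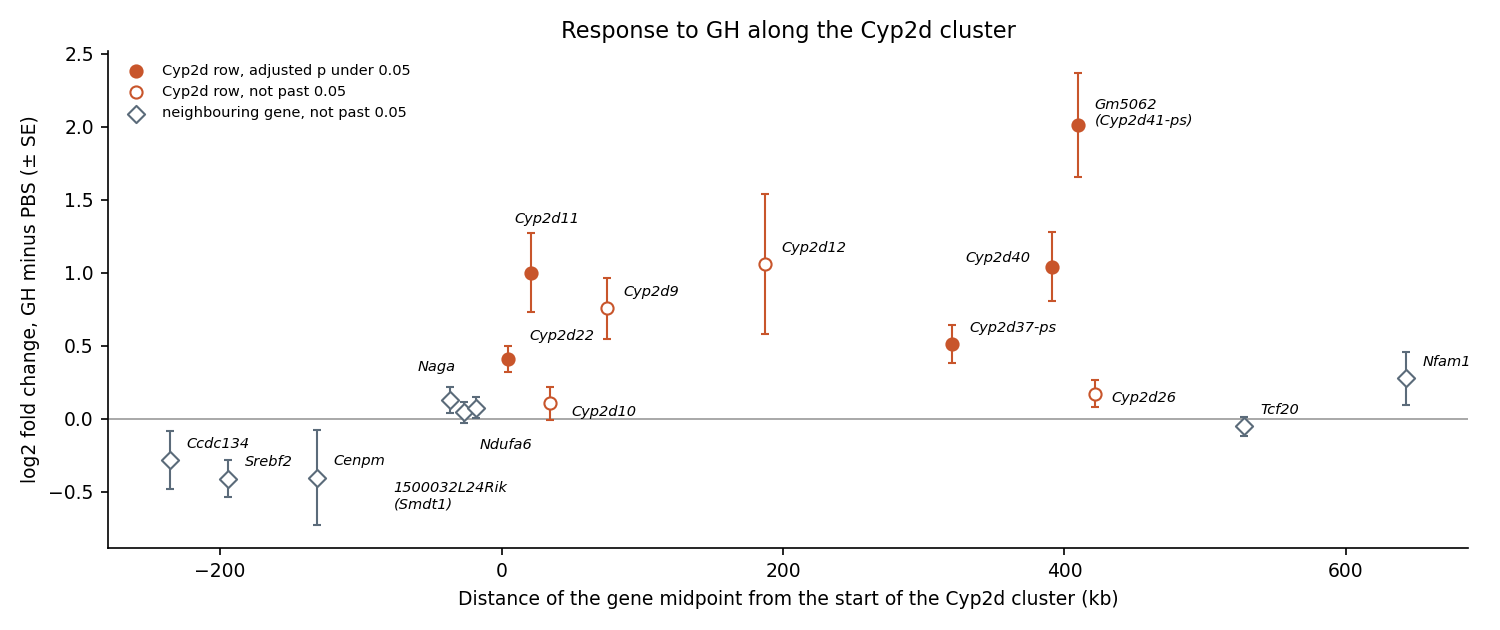
Log2 fold change (GH minus PBS) with its SE for each tested row of the Cyp2d cluster (orange circles) and for neighbouring genes (grey diamonds), against the distance of the gene's midpoint from the start of the cluster in kb; filled symbols have an adjusted p under 0.05. The 5 filled symbols are Cyp2d rows, from 0.41 (Cyp2d22) to 2.01 (Gm5062), and the 8 neighbours lie between -0.41 and 0.28.

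The calls of the tested rows are given here in their order along the chromosome, and no grouping of calls was tested. Cyp2d22 and Cyp2d11 passed, and Cyp2d10, Cyp2d9 and Cyp2d12 after them did not. Cyp2d37-ps, Cyp2d40 and Gm5062 followed and passed, and Cyp2d26 at the end did not. This order of calls depends on the fit. Cyp2d9 passed in DESeq2, and Cyp2d11, Cyp2d37-ps and Cyp2d40 lost their calls in most fits that omitted 1 library. Fold changes could differ between rows close to each other. The cluster runs from Cyp2d22 (start 82370527) to Cyp2d26 (end 82794294). Cyp2d10, with a log2 fold change of 0.11, lies between Cyp2d11 (1.0) and Cyp2d9 (0.76), and Cyp2d26 (0.17) lies next to Gm5062 (2.01) and Cyp2d40 (1.04). Within 250 kb of either end 8 further genes were tested, of which 0 passed in edgeR, beside 4.79% of all genes tested. The lowest was Srebf2, which encodes a regulator of cholesterol synthesis, at -0.41 (unadjusted p = 0.00531, adjusted p = 0.0810). The median of the 8 was -0.0044 on the log2 scale. The nearest flanking genes tested, Ndufa6, a subunit gene of respiratory complex I, and Tcf20, had 0.08 and -0.05.

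Whether members differed in their response was tested on the ratio of their CPM within each library, with a two-sided exact permutation test over every assignment of 6 and 6 libraries, adjusted over 21 pairs. The ratio of Cyp2d9 to Cyp2d10 went from 0.51 ± 0.32 to 1.17 ± 0.22 on the log2 scale (SD, n = 6), a difference of 0.66 (exact p = 0.00433, adjusted 0.0455). Cyp2d40 over Cyp2d10 differed by 0.89 and Cyp2d22 over Cyp2d10 by 0.30 (exact p = 0.00649 and 0.00866, adjusted 0.0455 for both). Cyp2d22 over Cyp2d26 went from -1.80 ± 0.11 to -1.57 ± 0.06, a difference of 0.24 (exact p = 0.00433, adjusted 0.0455). These 4 pairs passed. In every ratio the member with the larger log2 fold change was put first, so a positive difference follows largely from this order. Cyp2d40 over Cyp2d9, with a difference of 0.22, did not pass (exact p = 0.0606, adjusted 0.127), and neither did Cyp2d26 over Cyp2d10, with 0.06 (exact p = 0.461). The pair calls lay close to the threshold: 0 of 21 passed without PBS replicate 1, 2 or 6 or without GH replicate 1, 2, 3, 4 or 5, and 10 passed without GH replicate 6.

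**Figure D3:**
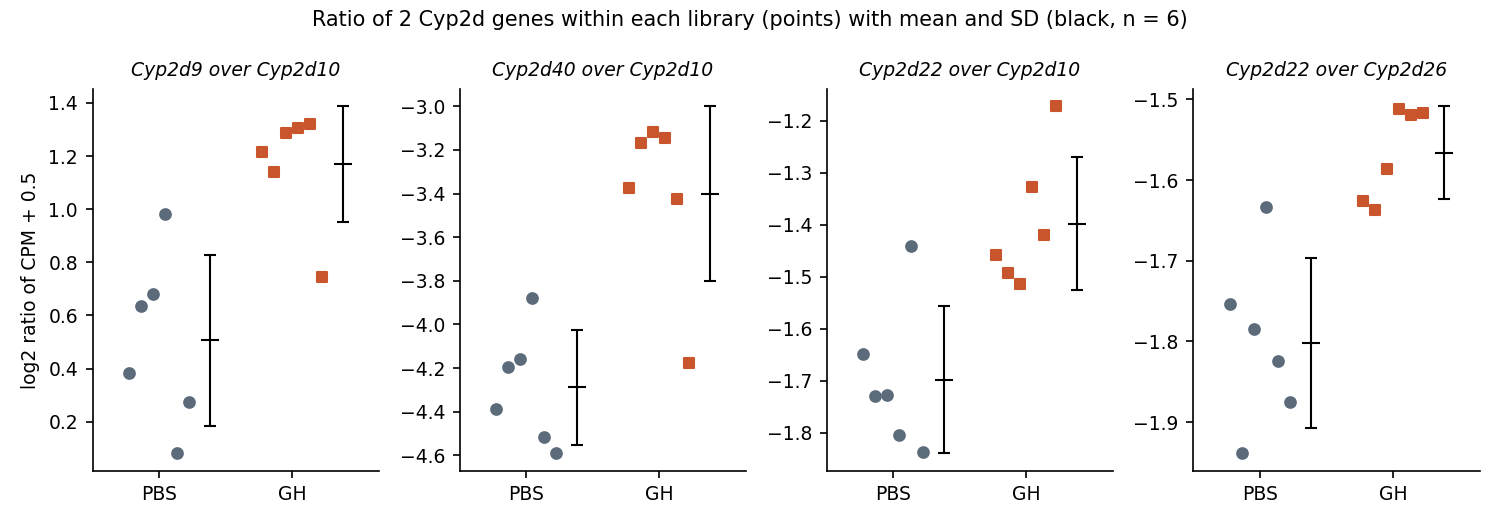
Log2 ratio of the CPM (+ 0.5) of 2 Cyp2d genes within each library, PBS as grey circles and GH as orange squares, with mean and SD in black (n = 6), for the 4 pairs that passed. The GH mean is higher by 0.66, 0.89, 0.30 and 0.24 from left to right. The member with the larger log2 fold change was put first in each ratio, so this shared direction follows from the order. In the panel of Cyp2d40 over Cyp2d10 GH replicate 6 lies among the PBS libraries.

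Summed over the family, the counts made up a larger part of the GH libraries on average, and the groups overlapped. Its 10 rows summed to 1720 to 2801 per 1000000 counts of each PBS library, with a median of 2566, and to 2342 to 3609 in GH, with a median of 3316 (means 2454 ± 382 and 3187 ± 461; SD, n = 6). GH replicate 6, at 2342, lay below the PBS median. In mean CPM the sum went from 2405 to 3260, and Cyp2d9, which missed the threshold in edgeR, from 894 to 1511. The larger sum is therefore not a rise shared evenly by the members. No p is given for the sum, since it is made of the members. Cyp2d9 supplied 36.6 ± 6.28% of the Cyp2d counts in PBS and 45.9 ± 4.35% in GH, and Cyp2d10 25.5 ± 1.60% and 20.3 ± 1.06%. Cyp2d40 went from 1.29 ± 0.170% to 1.95 ± 0.409%, while Cyp2d22 kept 7.89 ± 1.03% and 7.75 ± 1.06%. These shares add up to a fixed total, so a larger share of Cyp2d9 lowers the others.

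**Figure D4:**
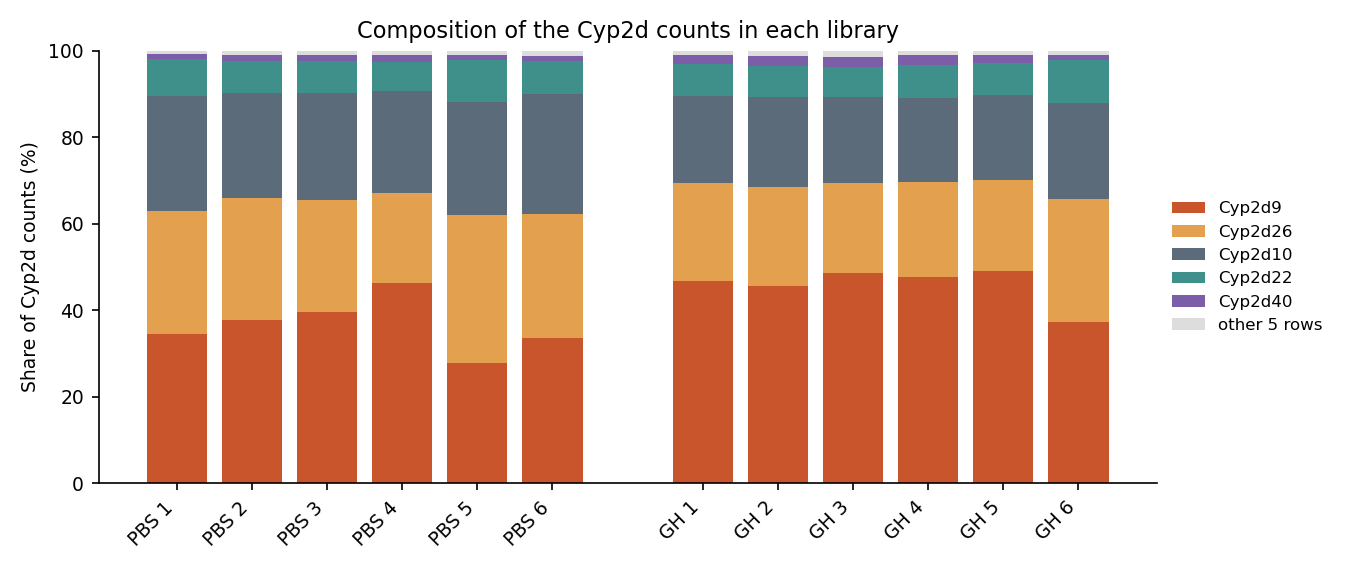
Share (%) of all counts of the 10 Cyp2d rows that each gene supplied, 1 bar per library, PBS on the left and GH on the right. Cyp2d9 fills 27.7% to 46.3% of the PBS bars and 37.4% (GH replicate 6) to 49.1% of the GH bars.

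Libraries also differed within a group, and Cyp2d9 and Cyp2d40 did so together. In PBS log2 CPM of the pair gave Pearson's r = 0.99 (exact permutation p = 0.00139, adjusted 0.0233 over 42 relations) and Spearman's rho = 1 (exact permutation p = 0.00278, adjusted 0.0583) over 6 libraries, and r was 0.96 without the 2 libraries farthest from the median of Cyp2d40, PBS replicates 4 and 5. In GH r was 0.94 and rho 0.09 (exact permutation p = 0.118 and 0.919), and the relation did not hold without GH replicates 2 and 6, the libraries farthest from the median (r = -0.82). Of the 42 relations 7 had an adjusted Pearson p under 0.05, this one in PBS and 6 in GH. The lowest adjusted p of Spearman's rho among the 42 (exact permutation) was 0.0583, so no relation passed by rank. In GH Cyp2d11 had 17 to 48 counts and Cyp2d12 4 to 40, so their relations rest on few reads. The part of reads shared between relatives in them was not tested. In GH Cyp2d9 was correlated with Cyp2d12 (r = 0.95, exact permutation p = 0.00139, adjusted 0.0233), Cyp2d10 (r = 0.91, exact permutation p = 0.00278, adjusted 0.0233) and Cyp2d11 (r = 0.79, exact permutation p = 0.00417, adjusted 0.0292), with rho of 1, 0.94 and 0.94 (exact permutation p = 0.00278, 0.0167 and 0.0167, adjusted 0.0583, 0.0778 and 0.0778). Without GH replicates 5 and 6 these r were 0.92, 0.87 and 0.81. Cyp2d12 was also correlated with Cyp2d10 and Cyp2d11 in GH (r = 0.94 and 0.91, rho = 0.94 for both). For both the exact permutation p of r was 0.00278 (adjusted 0.0233) and that of rho 0.0167 (adjusted 0.0778). Without GH replicates 5 and 6 these r were 0.98 and 0.91. The remaining relation was that of Cyp2d22 with Cyp2d26 in GH (r = 0.91, exact permutation p = 0.00694, adjusted 0.0417; rho = 0.83, exact permutation p = 0.0583), a value that fell to 0.51 without GH replicates 3 and 6. GH replicate 6 was the lowest GH library for 5 of the 7 members, and PBS replicate 5 the lowest PBS library for 4. GH replicate 6 lay inside the PBS range for 6 of the 7. The shares of all genes tested with these arrangements were not computed, so these counts have no background to be judged against. Members that vary together are also not separate observations of a library.

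**Figure D5:**
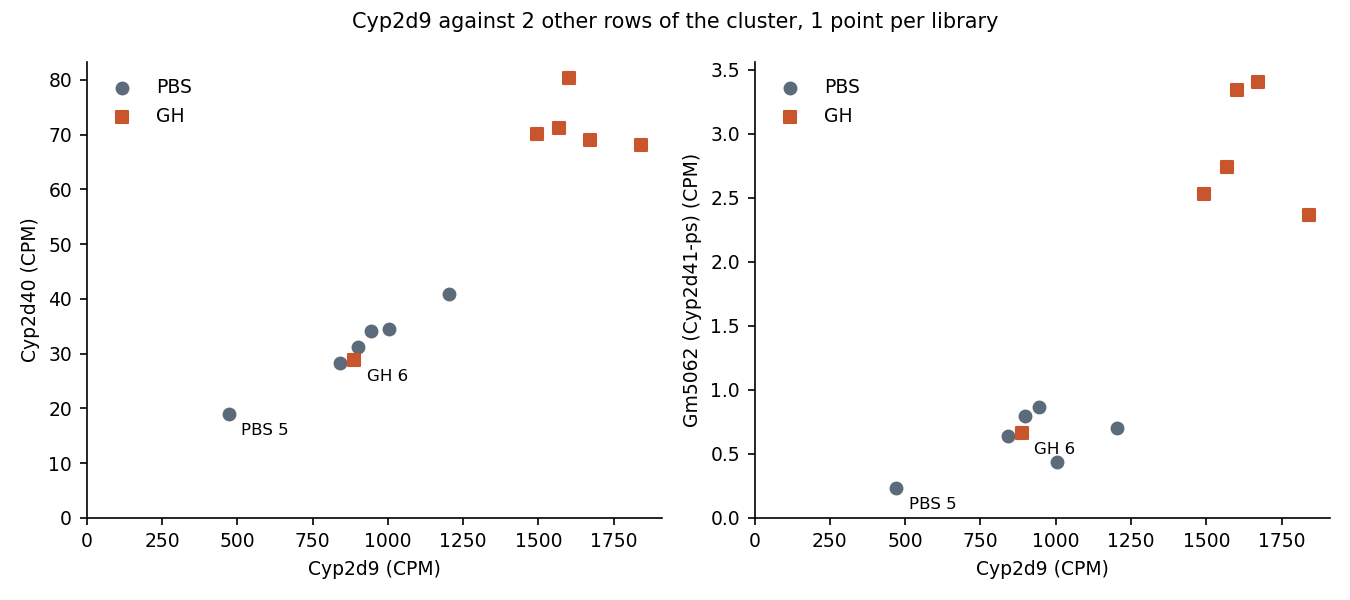
CPM of Cyp2d9 (horizontal axis) against CPM of Cyp2d40 (left) and of Gm5062, the row of Cyp2d41-ps (right), 1 point per library, PBS as grey circles and GH as orange squares. The other 5 GH libraries stand at the upper right, and GH replicate 6 (888 CPM of Cyp2d9, 28.7 of Cyp2d40, 0.659 of Gm5062) lies among the PBS libraries.

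Among all genes tested, the 3 whose log2 CPM over the 12 libraries was most like that of Cyp2d9 were the carboxylesterase gene Ces2c (r = 0.97, rho = 0.88), Cyp2d40 itself (r = 0.96, rho = 0.89) and Susd4, which encodes a complement regulator (r = 0.96, rho = 0.91). With the group means removed r was 0.96, 0.92 and 0.92. Those most like Cyp2d26, the member second by CPM, were the interleukin-22 receptor gene Il22ra1 (r = 0.94), Flii (r = 0.93) and C130074G19Rik (r = 0.93). These are descriptions of the closest of 14235 genes, and points share a library. The log2 fold change was 1.07 for Ces2c (adjusted p = 0.145) and 0.67 for Susd4 (adjusted p = 0.0508).

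Genes that work with or control the family mostly did not pass, and of all genes tested 4.79% passed in either direction. Of 17 tested genes of P450 electron transfer and haem synthesis 0 rose and 2 fell, with a median log2 fold change of 0.02. Por, the reductase that feeds electrons to all microsomal P450 enzymes, went from 113 ± 30.7 to 42.8 ± 20.9 CPM (SD, n = 6; log2 fold change -1.40, adjusted p = 0.0216), and Alas1, the first and rate-limiting enzyme of haem synthesis, from 138 ± 84.9 to 36.2 ± 10.6 CPM (adjusted p = 0.0202). Cytochrome b5 (Cyb5a, in the table as Cyb5), a second electron donor, had 749 ± 82.3 and 733 ± 47.7 CPM (adjusted p = 0.888).

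Of 23 tested regulators, with a median log2 fold change of -0.07, 0 rose and 1 fell, beside 2.52% of all genes tested called lower. The one was Onecut1, which encodes HNF6, from 20.4 ± 12.0 to 1.67 ± 0.360 CPM (SD, n = 6; adjusted p = 0.00167). Hnf4a, the hepatocyte factor named above, had 556 ± 75.3 and 517 ± 63.9 CPM (adjusted p = 0.624). For Stat5b, the GH effector, the log2 fold change was 0.01 (adjusted p = 0.976). Bcl6, a repressor in male liver, had 26.1 ± 19.7 and 67.1 ± 11.6 CPM (adjusted p = 0.151) and Nr0b2, the bile acid-induced repressor SHP, 33.2 ± 16.2 and 56.8 ± 17.0 CPM (adjusted p = 0.240). Gabpa, whose product binds TTCCGG, was at -0.18 on the log2 scale (adjusted p = 0.143).

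Other sex-biased P450 genes gave a frame for the size of the Cyp2d changes. Of 10 tested male-biased ones (median log2 fold change 0.53) 6 rose and 0 fell, beside 2.27% of all genes tested called higher. They were the steroid hydroxylase gene Cyp7b1 (1.67), the fatty acid hydroxylase genes Cyp4a12b (1.13) and Cyp4a12a (1.03), Cyp1a2 (0.67), Cyp4v3 (0.59) and Cyp2f2 (0.40), with adjusted p from 0.000772 to 0.0396. The estimate for Cyp2d9, 0.76, lies within the range of these called genes, which were selected by the same test. The 4 not called were Cyp2u1 (0.48), Cyp2e1 (-0.08), Cyp4f14 (-0.08) and Cyp2j5 (-0.10). Of 14 tested female-biased P450 genes (median log2 fold change -1.0) 0 rose and 3 fell, beside 2.52% of all genes tested called lower. The 3 were Cyp2c38 (-2.71), Cyp2c39 (-1.76) and Cyp4a14 (-5.07, from 150 ± 185 to 4.50 ± 3.47 CPM, SD, n = 6). Of those not called, Cyp2c40 (1.67, edgeR adjusted p = 0.166) and Cyp2c69 (0.90, adjusted p = 0.576) had estimates above 0. The others not called had estimates below 0. Of the male-biased P450 genes named here Cyp4a12a and Cyp4a12b are near-identical copies of each other. Their counts are uncertain where reads match both, and their shared words were not computed here. The uncertainty can therefore not be set beside that of Cyp2d9 to Cyp2d12.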

How the data were processed

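Total RNA of 12 livers, 6 per group, was sequenced, and the authors deposited raw gene counts that had not been normalized. STAR 2.4.0i and mm10 are named in the submitters' processing notes, and per the labels' protocols the libraries were stranded, depleted of ribosomal RNA and sequenced from both ends for 125 cycles. The sources used here name neither the counting program nor its treatment of strand and multiply matching reads. The analysis used edgeR 4.0.16 in R 4.3.3: filterByExpr (minimum count 10), TMM scaling, robust quasi-likelihood fitting of a 1-factor model (GH or PBS), F tests and Benjamini-Hochberg adjustment over 14235 genes, with a threshold of 0.05. CPM are TMM-scaled counts per 1000000, and each SE was derived from the log2 fold change and its F statistic. Genes were placed with GENCODE M21 (GRCm38, 36308 of 38087 identifiers matched), and upstream sequences came from RefSeq on GRCm38.p6. The fit was tested on simulated data.

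Named were all members, other Cyp2d rows, the 3 genes most like each of the 2 most abundant members, up to 6 called genes per related list with 6 fixed others, and called neighbours within 250 kb. Srebf2, Ndufa6, Tcf20 and Gabpa fall outside this rule and were named after their values were seen. Alternatives were DESeq2 1.42.0, RLE scaling, library totals, filters, a non-robust fit, a replicate block and leaving out libraries. The members and lists were chosen with earlier results of these data known.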

Additional observations from a re-analysis of the deposited data

Results flagged for a closer look

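In 14 sets of 6 values (7 members in 2 groups) 2 had a lowest library set apart from the rest by more than Dixon's 95% limit for 6 values, where chance flags about 1 in 20. Both were GH replicate 6: Cyp2d9 at 887.8 CPM, with the next GH library at 1494, and Cyp2d40 at 28.74 CPM, with the next at 68.09. The gaps were 0.636 and 0.763 of the range. In the same library Cyp2d22 had 234 CPM, above every PBS library, and Cyp2d26 had 672 CPM, inside the PBS range. Without this library 403 genes were called higher and 394 lower, and 790 of these were compared. In 474 (60.0%) the log2 CPM of GH replicate 6 was nearer to the mean of the other GH libraries than to the PBS mean. This share was computed for GH replicate 6 alone, so it has no background to be judged against. Of 3 genes picked after their values were seen, Onecut1 had 2.29 CPM there (6.11 to 37.0 in PBS) and Dcn 126 CPM (151 to 173 in PBS), values on the GH side, and Cyp7b1 had 475 CPM, between 330 CPM in the highest PBS library and 643 CPM in the next GH library. Whether the labelling of this library or the dosing of its mouse had a part in its low Cyp2d values was not tested, and every GH mean and fold change given here includes it unless stated.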

How the results depend on the processing

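The counts of genes called, 323 higher and 359 lower, were 506 and 551 in DESeq2, 211 and 658 with library totals alone, and 518 higher with GH replicate 6 and PBS replicate 5 left out, an alternative added after seeing the data. With 1 library left out they ran from 193 to 410 higher and from 241 to 444 lower. Cyp2d9 passed in DESeq2 (0.76), with a minimum count of 50 (0.76, adjusted p = 0.0495), without the robust fit (0.76, adjusted p = 0.0386) and without both libraries (0.74). Cyp2d40 lost its call with no filter on low counts (1.04, adjusted p = 0.0683). With 1 library left out Cyp2d9 ran from 0.62 to 0.87, Cyp2d40 from 0.93 to 1.20 and Cyp2d11 from 0.82 to 1.14. Passing pairs ran from 0 to 10, and were 8 without both libraries. The 7 members had the same direction under every alternative that gave them a value (with a minimum count of 50 only 5 had one). Cyp2d37-ps lost its call with library totals alone (0.45, adjusted p = 0.0519) and with the block described next.

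Replicate numbers did not pair the libraries: same-numbered libraries correlated from -0.18 to 0.16, 2 of 6 above 0.1, and 1 PBS library correlated best with its own number. With a replicate block 180 genes were higher and 211 lower, and Cyp2d40 (1.01, adjusted p = 0.0576) and Cyp2d11 (0.94, adjusted p = 0.0958) lost their calls, which left Cyp2d22 as the single member called. The mean Cyp2d share per 1000000 counts was 3346 in PBS and 4431 in GH when the 20 most abundant genes were left out of the total. With 0.5 added to counts in place of CPM 5 pairs passed, Cyp2d11/Cyp2d10 being added (0.77, exact permutation test, adjusted p = 0.0364). There the differences in response of Cyp2d12/Cyp2d11 (0.090), Cyp2d12/Cyp2d9 (0.20) and Cyp2d11/Cyp2d9 (0.11), none past the threshold in either form, changed sign. With 1 library left out, 3 such differences crossed 0: Cyp2d12/Cyp2d11 ran from -0.195 to 0.055, Cyp2d12/Cyp2d22 from -0.020 to 0.299 and Cyp2d11/Cyp2d9 from -0.269 to 0.012. Few counts limit Cyp2d11, Cyp2d12 and Gm5062. The 0.5 added to CPM in the pair ratios is of the size of the PBS means of Cyp2d11 (0.710 CPM) and Cyp2d12 (0.428 CPM). The cause of the changes between alternatives was not tested.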
